A study of Homo sapiens with 24 samples.

Results

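The genes described are 36 constitutive subunits and regulators of the proteasome, chosen by symbol: 20S core subunits, 19S cap subunits, the PA28 activator, the single-gene activator PA200 and the inducible core subunit PSMB10. Probes annotated to 32 of the 36 were measured, among 14077 genes measured in all. PSMA7, PSMC5, PSMD7 and PSMD13 are not listed in the probe annotation used. The 32 genes had 46 tested probes, and the brightest probe of each gene stood for it. All 32 of those probes were above the negative control beads (detection p under 0.05) on all 24 arrays, so no gene entered through 1 group alone.

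The proteasome is the protease that degrades proteins tagged with ubiquitin. Its 20S core is a barrel of stacked alpha and beta rings that encloses the cutting sites, and its 19S cap binds ubiquitin chains, unfolds the protein with a ring of ATPases and feeds it into the core. Activators such as PA28 and PA200 can take the place of the cap, and interferon-gamma replaces the cutting beta subunits by inducible ones to form the immunoproteasome, which is known for making peptides for antigen presentation.

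Illumina beadchips measured expression in 4 established lines of squamous cell carcinoma of the head and neck. SCC-25 and Cal-27 are tongue tumour lines, FaDu is a line of the pharynx and SQ20B one of the larynx. Each line was measured as the erlotinib-sensitive parent and as an erlotinib-resistant derivative, with 3 arrays in each of the 8 groups. Erlotinib inhibits the kinase of the epidermal growth factor receptor. Every culture received 0.01% DMSO for 48 h before harvest, and the resistant cells were grown in medium with erlotinib. Whether erlotinib was present in those 48 h, whether each resistant line is a clone and whether the replicates were separate cultures are not given in the sources used here, so p-values measure the spread between arrays, which may be technical. SCC-25 and Cal-27 share a table of 12 arrays and FaDu and SQ20B share another. The tables were normalised separately, and tests were run only within a table.

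Median raw signals lay between 102.6 and 118.7 per array, and 39.5% to 45% of probes were detected. After normalisation, arrays of a group correlated at 0.9914 to 0.9957 across the 14077 genes, which are not independent replicates. Of 7 squamous epithelial markers with a probe, 5 or 6 were detected on all 3 arrays of every group. Of the leukocyte list, CD14 and CD68 were so detected in every group and LYZ in resistant SQ20B. PTPRC was not detected throughout any group. The endothelial and melanocyte lists had at most 2 members so detected. Summed fibroblast markers were 964.1 to 1008.3 intensity units in sensitive and 6211.6 to 8289.1 in resistant SCC-25. In SQ20B they were 133.8 to 141.8 and 801.3 to 933.2. Of the 6 fibroblast markers, 5 were detected on all 3 arrays of sensitive SCC-25. Singly, 3 were called higher and 1 lower in SCC-25 (adjusted p under 0.05, limma), and 2 higher and 0 lower in SQ20B. Of all genes, 15.4% were called higher and 15.5% lower in SCC-25, and 28.4% and 25.8% in SQ20B. Summed endothelial markers, mostly CDH5, were 122.9 to 152.3 in sensitive and 1045.0 to 1072.9 in resistant Cal-27, and 148.6 to 172.5 and 388.7 to 419.3 in FaDu. Summed squamous epithelial markers were lower in resistant cells of every line without overlap. In SQ20B they were 20559.0 to 21971.1 in sensitive and 14662.1 to 15555.7 in resistant cells, and in FaDu 17885.9 to 19973.8 and 14298.6 to 15812.9. In Cal-27 they were 23506.6 to 26128.5 and 13466.9 to 14600.4, and in SCC-25 26872.2 to 29009.4 and 19207.3 to 22394.6. Not every marker of this list fell. Singly, 3 of 6 tested squamous epithelial markers were called lower for SQ20B, 4 for FaDu, 3 for Cal-27 and 4 for SCC-25. FaDu alone had 1 called higher, and its log2 changes ran from -2.37 (KRT14) to 0.31 (CDH1). Those of Cal-27 ran from -6.24 (KRT14) to 0.10 (EPCAM), and those of SQ20B from -1.63 (KRT5) to 0.19 (CDH1). The part of these differences in the results below was not tested.

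The constitutive proteasome genes were mostly lower in resistant cells of FaDu and SQ20B, and in SCC-25 and Cal-27 the counts lay nearer the share of all genes. In FaDu, 25 of 32 genes fell and 2 rose. In SQ20B, 27 fell and 2 rose. In SCC-25, 7 fell and 2 rose, and in Cal-27, 9 fell and 1 rose. Rose and fell here mean an adjusted p under 0.05 from limma, with Benjamini-Hochberg adjustment over all 14077 genes. Among all genes, 20.3% fell in FaDu, 25.8% in SQ20B, 15.5% in SCC-25 and 17.4% in Cal-27, and 20.6%, 28.4%, 15.4% and 16.4% rose in the same order.

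The median log2 change over the 32 genes, resistant minus sensitive, was -0.57 in SQ20B, -0.36 in FaDu, -0.11 in SCC-25 and -0.09 in Cal-27. Over all genes it lay between -0.02 and 0.00 in every line. In bulk RNA, fewer cells that express a gene and less of its RNA per cell cannot be told apart. All 3 resistant arrays lay below all 3 sensitive arrays for 28 of the 32 genes in FaDu and for 28 in SQ20B, against 25.2% and 29.0% of all genes. The same held for 9 genes in SCC-25 and 12 in Cal-27, against 20.4% and 25.1% of all genes. A fall of at least 1.5-fold was called for 6 genes in FaDu, 14 in SQ20B, 0 in SCC-25 and 1 in Cal-27, against 7.53%, 14.5%, 6.09% and 6.34% of all genes.

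Proteasome genes are bright on these arrays, and 26 of the 32 had a mean level of at least 10 on the log2 scale, as 1922 genes did. Among those bright genes, 27.4% fell in FaDu, 40.7% in SQ20B, 15.9% in SCC-25 and 22.3% in Cal-27. Of the 26 proteasome genes among them, 19 fell in FaDu, 21 in SQ20B, 7 in SCC-25 and 5 in Cal-27. The median change of the bright genes was -0.04 in FaDu and -0.09 in SQ20B, where that of the 26 was -0.31 and -0.56. In Cal-27 the 5 of 26 lay below the share of bright genes, and the medians were -0.05 for the 26 and -0.03 for the bright genes.

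**Figure D1:**
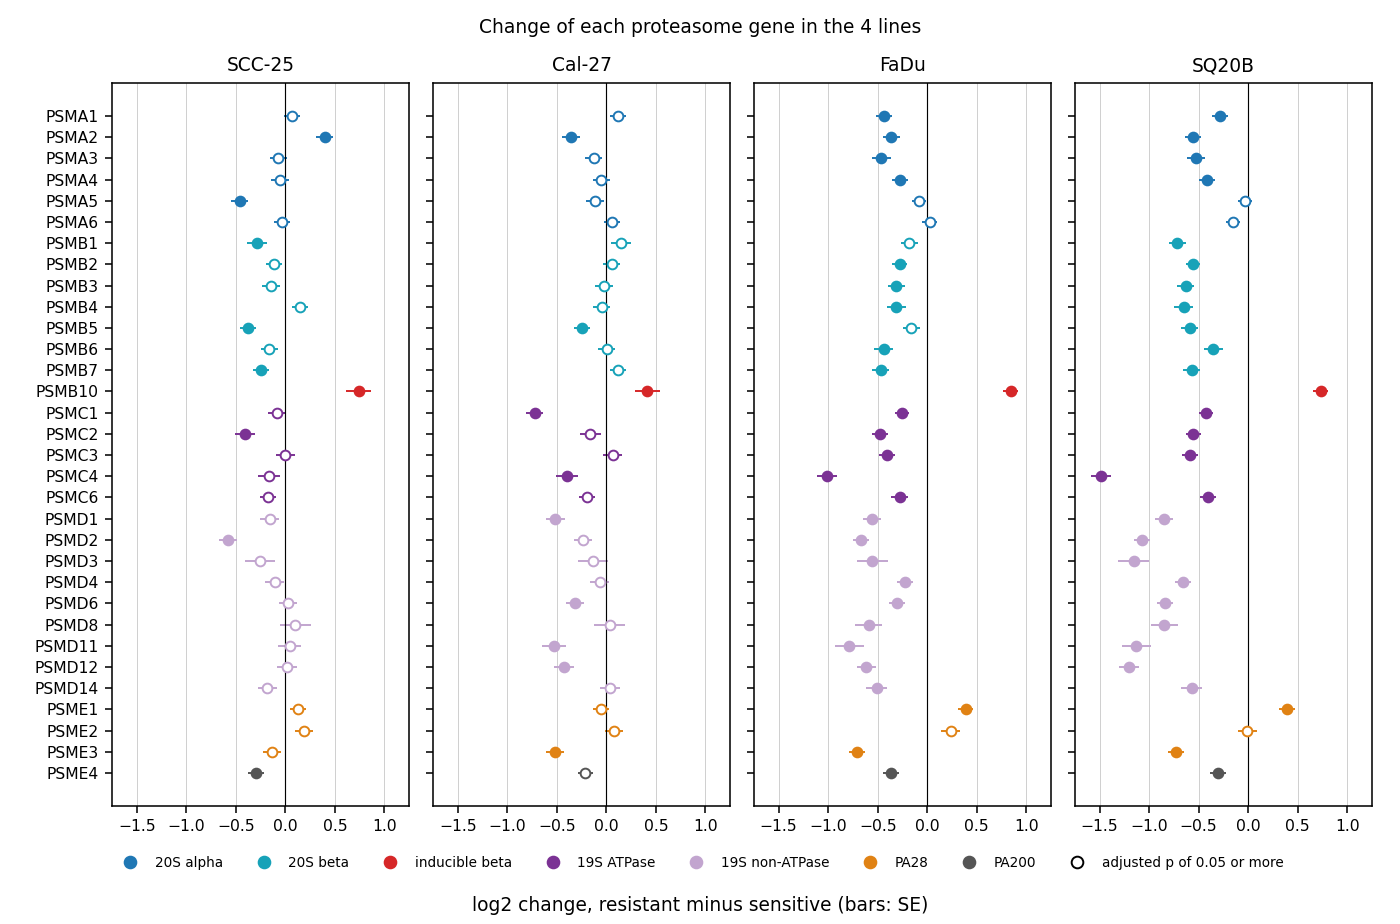
Log2 change, resistant minus sensitive, of the 32 proteasome genes in the 4 lines, with the standard error from limma as the bar. Filled points have an adjusted p under 0.05. All 14 genes of the 19S cap lie left of 0 and are filled in FaDu and SQ20B, and PSMB10 lies right of 0 and is filled in all 4 lines.

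In the 20S core, 13 constitutive subunits were measured. Of these, 9 fell in FaDu, 11 in SQ20B, 4 in SCC-25 and 2 in Cal-27, and PSMA2 in SCC-25 was the 1 that rose. Of all genes, 20.3%, 25.8%, 15.5% and 17.4% fell in the same order, and 15.4% rose in SCC-25. The 2 of 13 in Cal-27 lay near the share of all genes. The median log2 change of the 13 was -0.31 in FaDu, -0.56 in SQ20B, -0.12 in SCC-25 and -0.02 in Cal-27. The alpha subunits, of which 6 were measured, form the gated outer rings. Of the 6, 4 fell in FaDu and 4 in SQ20B: PSMA1, PSMA2, PSMA3 and PSMA4. PSMA5 and PSMA6 passed the test in neither line. Their log2 changes in FaDu were -0.08 ± 0.07 (SE) for PSMA5 and 0.03 ± 0.07 for PSMA6, and in SQ20B they were -0.03 ± 0.07 and -0.15 ± 0.07.

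PSMB5 carries the chymotrypsin-like cutting site and is the main target of bortezomib. Its log2 level was 12.95, 12.93 and 12.99 in sensitive and 12.51, 12.52 and 12.71 in resistant SCC-25, a change of -0.38 ± 0.08 (adjusted p = 0.00401, limma). In Cal-27 it was 11.99, 11.86 and 11.91 in sensitive and 11.62, 11.76 and 11.65 in resistant cells (-0.24 ± 0.08, adjusted p = 0.0389). The resistant arrays lay below the sensitive ones in both lines. In FaDu it was 11.60, 11.51 and 11.63 in sensitive and 11.41, 11.40 and 11.44 in resistant cells, and the change of -0.16 ± 0.08 did not pass the test (adjusted p = 0.145), although the groups do not overlap. In SQ20B it was 10.57, 10.63 and 10.40 in sensitive and 10.03, 9.86 and 9.94 in resistant cells (-0.59 ± 0.08, adjusted p = 5.25e-05). The resistant arrays of SQ20B were again all below the sensitive ones. In Cal-27 the call was lost without any 1 array other than resistant replicate 2, with an adjusted p of 0.0543 to 0.126.

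PSMB6 carries the caspase-like site. Its log2 level was 12.76, 12.54 and 12.66 in sensitive and 12.10, 12.27 and 12.26 in resistant FaDu (-0.44 ± 0.10, adjusted p = 0.00253). SQ20B showed 12.48, 12.58 and 12.53 in sensitive and 12.07, 12.12 and 12.34 in resistant cells (-0.35 ± 0.10, adjusted p = 0.00679). The groups do not overlap in either line. SCC-25 showed 12.88, 13.06 and 13.14 in sensitive and 12.85, 12.89 and 12.86 in resistant cells (-0.16 ± 0.09, adjusted p = 0.184). Cal-27 showed 12.63, 12.74 and 12.70 in sensitive and 12.76, 12.71 and 12.61 in resistant cells (0.01 ± 0.09, adjusted p = 0.969). The arrays of sensitive and resistant cells overlap in both of these lines.

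PSMB7 carries the trypsin-like site, which PSMB10 replaces in the immunoproteasome. Its log2 level was 11.36, 11.53 and 11.60 in sensitive and 10.98, 11.04 and 11.05 in resistant FaDu (-0.47 ± 0.08, adjusted p = 6.03e-04). In SQ20B it was 11.85, 11.82 and 11.81 in sensitive and 11.29, 11.32 and 11.15 in resistant cells (-0.57 ± 0.08, adjusted p = 6.51e-05). Resistant arrays were below sensitive ones in both. In SCC-25 it was 12.99, 13.17 and 13.20 in sensitive and 12.90, 12.87 and 12.85 in resistant cells (-0.25 ± 0.08, adjusted p = 0.0354). In Cal-27 it was 12.78, 12.81 and 12.75 in sensitive and 12.87, 12.97 and 12.84 in resistant cells (0.11 ± 0.08, adjusted p = 0.323). The difference between the changes of SCC-25 and Cal-27 was -0.36 ± 0.11 (adjusted p = 0.0280). In SCC-25 the calls of PSMB7 and of PSMB1, a structural beta subunit, were lost without any 1 array other than sensitive replicate 1. The adjusted p was then 0.0618 to 0.103 for PSMB7 and 0.0631 to 0.163 for PSMB1, whose change went from -0.29 to -0.19 without sensitive replicate 3.

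Among the other core subunits, PSMA2 changed in opposite directions in the tongue lines. On the log2 scale it read 8.32, 8.38 and 8.12 in sensitive and 8.69, 8.66 and 8.66 in resistant SCC-25 (0.40 ± 0.09, adjusted p = 0.00414). In Cal-27 it was 9.56, 9.49 and 9.57 in sensitive and 9.27, 9.07 and 9.21 in resistant cells (-0.36 ± 0.09, adjusted p = 0.00706). PSMA2 thus rose in SCC-25 and fell in Cal-27 with no overlap of arrays, and it fell by 0.36 in FaDu and by 0.56 in SQ20B. Under median scaling both tongue calls were lost (0.30, adjusted p = 0.0864 in SCC-25, and -0.33, adjusted p = 0.0554 in Cal-27). PSMA5 was 13.28, 13.28 and 13.41 in sensitive and 12.78, 13.01 and 12.80 in resistant SCC-25, its 1 line with a call (-0.46 ± 0.09, adjusted p = 0.00136). PSMB1 fell by 0.72 in SQ20B (adjusted p = 9.92e-06). PSMA1 was at 11.63, 11.57 and 11.61 in sensitive and 11.20, 11.35 and 11.39 in resistant SQ20B (-0.29 ± 0.08), with a larger fall by its second probe and a change of -0.79 by the mean of its probes. Its call was lost without SQ20B resistant replicate 1 (adjusted p = 0.0509). In FaDu, PSMA4 lost its call without sensitive replicate 3 (adjusted p = 0.0662) or resistant replicate 1 (0.0548), and PSMB3 without resistant replicate 2 (0.0511). PSMB4 lost it there without sensitive replicate 1 (0.0664), resistant replicate 1 (0.0689) or resistant replicate 2 (0.0626). Median scaling made several core falls larger by over 1.5 times. In FaDu PSMB6 then fell by 0.69, PSMB3 by 0.60, PSMA4 by 0.55, PSMB4 by 0.50 and PSMB2 by 0.49, and in SQ20B PSMA4 fell by 0.63, PSMB6 by 0.61 and PSMA1 by 0.48.

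All 14 measured genes of the 19S cap fell in FaDu and all 14 in SQ20B. In Cal-27, 6 of the 14 fell, in SCC-25 2 fell, and none rose in any line. Of all genes, 20.3% fell in FaDu, 25.8% in SQ20B, 17.4% in Cal-27 and 15.5% in SCC-25. The shares that rose were 20.6%, 28.4%, 16.4% and 15.4%. The 2 of 14 in SCC-25 lay near the share of all genes that fell. The median log2 change of the 14 was -0.53 in FaDu, -0.84 in SQ20B, -0.21 in Cal-27 and -0.13 in SCC-25. A fall of at least 1.5-fold was called for 5 cap genes in FaDu and 9 in SQ20B, and for 0 and 4 of the 13 core genes. Of all genes, 7.53% and 14.5% had such a call. Among the 5 cap genes in FaDu, PSMC4, PSMD8 and PSMD11 were dim, with mean log2 levels of 7.69, 8.93 and 7.79 in sensitive cells. Without background correction PSMC4 fell there by 0.63 and PSMD11 by 0.51, so such counts depend on level and background. The 5 ATPases had a median of -0.41 in FaDu and -0.55 in SQ20B, and the 9 subunits without ATPase activity had -0.56 and -0.85.

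PSMC4, an ATPase of the unfolding ring, had the lowest change of the 32 genes in FaDu and in SQ20B, by the brightest probe of each gene. With the mean of the probes of a gene PSME3 was lowest in FaDu and PSMD3 in SQ20B, and without background correction PSMD12 was lowest in SQ20B. On the log2 scale its level was 7.85, 7.55 and 7.68 in sensitive and 6.83, 6.71 and 6.51 in resistant FaDu (-1.01 ± 0.10, adjusted p = 6.90e-06). SQ20B showed 8.35, 8.28 and 8.21 in sensitive and 6.77, 6.87 and 6.74 in resistant cells (-1.49 ± 0.10, adjusted p = 8.44e-08). The gap between the groups was wider than the range within either group in both lines. Cal-27 showed 8.56, 8.91 and 8.52 in sensitive and 8.29, 8.26 and 8.26 in resistant cells (-0.39 ± 0.11, adjusted p = 0.0162). That call was lost without Cal-27 sensitive replicate 2, the highest array (-0.27, adjusted p = 0.0760). SCC-25 showed 8.71, 8.46 and 8.40 in sensitive and 8.35, 8.42 and 8.29 in resistant cells, which overlap (-0.17 ± 0.11, adjusted p = 0.294). Without background correction the change of PSMC4 was -0.63 in FaDu and -1.01 in SQ20B. Its other tested probes fell by 0.56 and 0.78 in FaDu and by 0.57 and 0.99 in SQ20B. The fall in FaDu was smaller than in SQ20B by 0.48 ± 0.15 (adjusted p = 0.0228).

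PSMC1, another ATPase of the ring, was the lowest change in Cal-27. Its log2 level was 12.975, 13.002 and 12.906 in sensitive and 12.293, 12.276 and 12.149 in resistant cells (-0.72 ± 0.09, adjusted p = 2.97e-05). In SCC-25 it was 13.33, 13.54 and 13.53 in sensitive and 13.45, 13.37 and 13.31 in resistant cells (-0.09 ± 0.09, adjusted p = 0.493). Of these groups, those of Cal-27 are apart and those of SCC-25 overlap, and the difference between these changes was 0.63 ± 0.12 (adjusted p = 0.00146). PSMC2 was the 1 ATPase called in SCC-25, at 12.29, 12.20 and 12.35 in sensitive and 12.04, 11.84 and 11.74 in resistant cells (-0.41 ± 0.10, adjusted p = 0.00932). In FaDu the call of the ATPase PSMC6 was lost without sensitive replicate 2 (adjusted p = 0.0621), sensitive replicate 3 (0.0518) or resistant replicate 1 (0.0518). Under median scaling the falls of PSMC1 and PSMC6 in FaDu were 0.50 and 0.52, against 0.26 and 0.28, and that of PSMC1 in SQ20B was 0.67, against 0.43.

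PSMD2 and PSMD1 are the large scaffold subunits at the base of the cap. PSMD2 had the lowest change of the 32 genes in SCC-25, at 12.13, 12.16 and 12.11 in sensitive and 11.44, 11.69 and 11.54 in resistant cells (-0.58 ± 0.09, adjusted p = 3.67e-04). It fell by 0.67 in FaDu and by 1.07 in SQ20B. In Cal-27 its change was -0.23 ± 0.09 (adjusted p = 0.0650). PSMD1 fell by 0.85 in SQ20B, by 0.56 in FaDu and by 0.52 in Cal-27 (adjusted p = 0.0010 in Cal-27), and its change in SCC-25 was -0.16 ± 0.10 (adjusted p = 0.249).

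PSMD3, PSMD6, PSMD8, PSMD11 and PSMD12 are structural subunits of the lid of the cap. PSMD11 was 8.22, 8.28 and 8.20 in sensitive and 7.76, 7.71 and 7.64 in resistant Cal-27 (-0.53 ± 0.12, adjusted p = 0.00379). In FaDu it was 7.73, 7.81 and 7.83 in sensitive and 7.31, 6.96 and 6.74 in resistant cells (-0.79 ± 0.15, adjusted p = 9.53e-04). No arrays of the groups overlap in these lines, and PSMD11 fell by 1.13 in SQ20B. PSMD12 was 10.41, 10.38 and 10.54 in sensitive and 9.21, 9.37 and 9.14 in resistant SQ20B (-1.20 ± 0.10, adjusted p = 4.05e-07). PSMD3 was 7.73, 7.24 and 7.54 in sensitive and 6.16, 6.29 and 6.59 in resistant SQ20B (-1.16 ± 0.16, adjusted p = 3.58e-05). Both were lower on every resistant array of SQ20B, and in FaDu they fell by 0.61 and 0.56. Without background correction PSMD3 fell by 0.67 in SQ20B and 0.34 in FaDu, and PSMD11 by 0.73 and 0.51. With the mean of its probes PSMD12 fell by 0.68 in SQ20B. The fall of PSMD3 in FaDu lost its call without resistant replicate 1 (adjusted p = 0.0530).

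PSMD6 was 11.75, 11.67 and 11.65 in sensitive and 11.48, 11.33 and 11.30 in resistant Cal-27 (-0.32 ± 0.09, adjusted p = 0.0199). The groups are apart, yet the call was lost without sensitive replicate 1 (adjusted p = 0.0673), resistant replicate 2 (0.0641) or resistant replicate 3 (0.0750). PSMD4, a ubiquitin receptor, was 10.30, 10.37 and 10.39 in sensitive and 10.11, 10.12 and 10.16 in resistant FaDu (-0.23 ± 0.08, adjusted p = 0.0399). Its call there was lost without any 1 array other than sensitive replicate 1 (adjusted p = 0.0639 to 0.106), and it fell by 0.66 in SQ20B. Under median scaling PSMD4 fell by 0.39 and PSMD6 by 0.54 in FaDu, against 0.23 and 0.31. PSMD14, the subunit that cuts ubiquitin chains off the substrate, fell by 0.51 in FaDu (adjusted p = 0.00184) and by 0.57 in SQ20B (4.95e-04), with changes of -0.18 ± 0.10 in SCC-25 and 0.04 ± 0.10 in Cal-27.

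**Figure D2:**
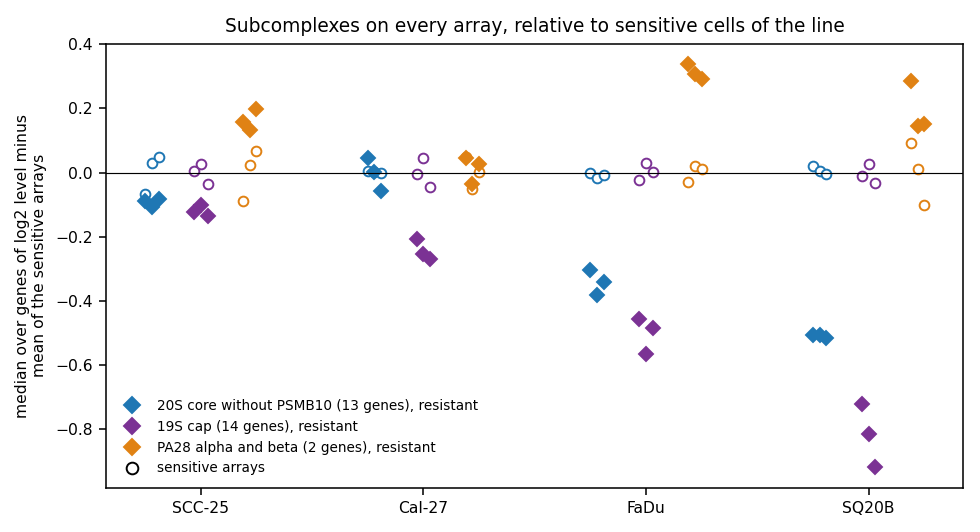
Median over the genes of a subcomplex of the log2 level minus the mean of the sensitive arrays of the line, for every array. The resistant arrays of SQ20B lie at -0.51 to -0.52 for the 20S core without PSMB10 and at -0.72 to -0.92 for the 19S cap, and the resistant arrays of FaDu lie at -0.30 to -0.38 and -0.46 to -0.57.

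Set side by side on each array, the cap was lower than the core in FaDu and SQ20B. Relative to the mean of the sensitive arrays, the median over the 14 cap genes was -0.46, -0.57 and -0.48 in resistant FaDu, and that over the 13 core genes was -0.30, -0.38 and -0.34. In SQ20B the cap stood at -0.72, -0.82 and -0.92 and the core at -0.51, -0.51 and -0.52. In Cal-27 the cap stood at -0.21, -0.26 and -0.27 and the core at 0.05, 0.00 and -0.06. The 3 lines share this order on every resistant array. In SCC-25 the cap stood at -0.12, -0.10 and -0.14 and the core at -0.09, -0.11 and -0.08, which overlap. PSME1 and PSME2 together stood at 0.34, 0.31 and 0.29 in FaDu, at 0.28, 0.14 and 0.15 in SQ20B and at 0.16, 0.13 and 0.20 in SCC-25. In Cal-27 they stood at 0.05, -0.04 and 0.03, within the range of the sensitive arrays. The median of these 2 genes is their mean. In SQ20B the change was 0.39 for PSME1 and -0.01 for PSME2, so the joint value there rests on PSME1. These are descriptions of chosen genes and carry no test.

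The 3 genes of the PA28 activator did not move together. PSME1 and PSME2 encode the alpha and beta subunits of the ring that interferon-gamma induces, and PSME3 encodes the gamma subunit, which forms a nuclear ring of its own. PSME3 fell in FaDu, SQ20B and Cal-27, PSME1 rose in FaDu and SQ20B, and PSME2 passed the test in no line.

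PSME3 was 9.45, 9.41 and 9.51 in sensitive and 8.79, 8.80 and 8.66 in resistant FaDu (-0.71 ± 0.08, adjusted p = 1.57e-05). SQ20B showed 9.89, 9.95 and 9.77 in sensitive and 9.13, 9.15 and 9.16 in resistant cells (-0.73 ± 0.08, adjusted p = 5.05e-06). Cal-27 showed 9.81, 9.69 and 9.84 in sensitive and 9.28, 9.25 and 9.25 in resistant cells (-0.52 ± 0.09, adjusted p = 6.54e-04). In each of these lines the resistant arrays were all lower. SCC-25 showed 9.59, 9.34 and 9.63 in sensitive and 9.34, 9.45 and 9.37 in resistant cells, which overlap (-0.14 ± 0.09, adjusted p = 0.287). The change in SCC-25 differed from that in Cal-27 by 0.38 ± 0.13 (adjusted p = 0.0350).

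PSME1 was 12.21, 12.29 and 12.28 in sensitive and 12.65, 12.66 and 12.63 in resistant FaDu (0.39 ± 0.08, adjusted p = 0.00139). The level in SQ20B was 10.88, 10.88 and 10.91 in sensitive and 11.41, 11.23 and 11.20 in resistant cells (0.39 ± 0.08, adjusted p = 7.34e-04). Resistant arrays were all higher in both lines. The level in SCC-25 was 11.762, 11.878 and 11.974 in sensitive and 12.086, 11.997 and 11.924 in resistant cells (0.13 ± 0.08, adjusted p = 0.259). The level in Cal-27 was 12.31, 12.28 and 12.22 in sensitive and 12.21, 12.20 and 12.24 in resistant cells (-0.05 ± 0.08, adjusted p = 0.700). Both tongue lines overlap between sensitive and resistant cells. Both calls of PSME1 were lost with the mean of its probes and with median scaling. With the mean of its probes it was 0.06 (adjusted p = 0.678) in FaDu and 0.03 (adjusted p = 0.839) in SQ20B. With median scaling it was 0.14 (adjusted p = 0.411) in FaDu and 0.23 (adjusted p = 0.114) in SQ20B. Its dimmer probe, annotated to another transcript and detected on 19 of 24 arrays, gave -0.27 ± 0.14 in FaDu and -0.34 ± 0.14 in SQ20B, neither of which passed the test.

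PSME2 was 11.57, 11.59 and 11.59 in sensitive and 11.87, 11.80 and 11.80 in resistant FaDu (0.24 ± 0.10, adjusted p = 0.0720). The level in SQ20B was 10.57, 10.40 and 10.15 in sensitive and 10.42, 10.32 and 10.36 in resistant cells (-0.01 ± 0.10, adjusted p = 0.960). The arrays are apart in FaDu and overlap in SQ20B. The level in SCC-25 was 11.35, 11.46 and 11.45 in sensitive and 11.51, 11.56 and 11.76 in resistant cells (0.19 ± 0.09, adjusted p = 0.132). The level in Cal-27 was 11.46, 11.28 and 11.45 in sensitive and 11.54, 11.39 and 11.47 in resistant cells (0.07 ± 0.09, adjusted p = 0.601). PSME4, the PA200 activator, fell by 0.37 in FaDu (adjusted p = 0.00221), by 0.31 in SQ20B (0.00465) and by 0.30 in SCC-25 (0.0108), and its change in Cal-27 was -0.21 ± 0.08 (0.0510).

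PSMB10, the inducible counterpart of PSMB7, rose in all 4 lines, as did 229 of the 14077 genes (1.63%). Its log2 level was 9.929, 10.372 and 10.466 in sensitive and 11.107, 10.890 and 11.001 in resistant SCC-25 (0.74 ± 0.13, adjusted p = 6.46e-04). Cal-27 showed 11.09, 11.13 and 11.24 in sensitive and 11.54, 11.52 and 11.65 in resistant cells (0.41 ± 0.13, adjusted p = 0.0223). Every resistant array was above every sensitive one in both lines. FaDu showed 11.47, 11.52 and 11.50 in sensitive and 12.24, 12.36 and 12.41 in resistant cells (0.84 ± 0.08, adjusted p = 2.20e-06). SQ20B showed 10.64, 10.72 and 10.61 in sensitive and 11.38, 11.41 and 11.38 in resistant cells (0.73 ± 0.08, adjusted p = 2.98e-06). The pharynx and larynx lines show no overlap either. The Cal-27 call was lost without sensitive replicate 1 (adjusted p = 0.0704), sensitive replicate 2 (0.0620) or resistant replicate 3 (0.0791).

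The other inducible core subunits moved the same way where they passed the test. PSMB8, which replaces PSMB5, rose by 0.95 in SQ20B (adjusted p = 2.77e-06), 0.52 in FaDu (8.59e-04), 0.43 in Cal-27 (0.00124) and 0.24 in SCC-25 (0.0436). PSMB9, which replaces PSMB6, rose by 1.35 in SQ20B (3.35e-07), 0.95 in FaDu (1.84e-05) and 0.62 in SCC-25 (0.00137), and its change in Cal-27 was 0.22 ± 0.12 (0.173). Of 7 measured genes of antigen presentation and the interferon-gamma response, 7 rose in SQ20B, 6 in FaDu and 4 in Cal-27, and 1 rose and 1 fell in SCC-25. Of all genes, 28.4%, 20.6%, 16.4% and 15.4% rose in the same order, and 15.5% fell in SCC-25. Both counts in SCC-25 lay near those shares. The guanylate-binding protein GBP1 fell by 0.89 in SCC-25 and rose by 1.63 in FaDu and 3.40 in SQ20B. The transcription factor IRF1 rose in all 4 lines, by 0.33 to 0.56, and B2M, the light chain of MHC class I, rose by 0.81 in FaDu and 1.71 in SQ20B.

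**Figure D3:**
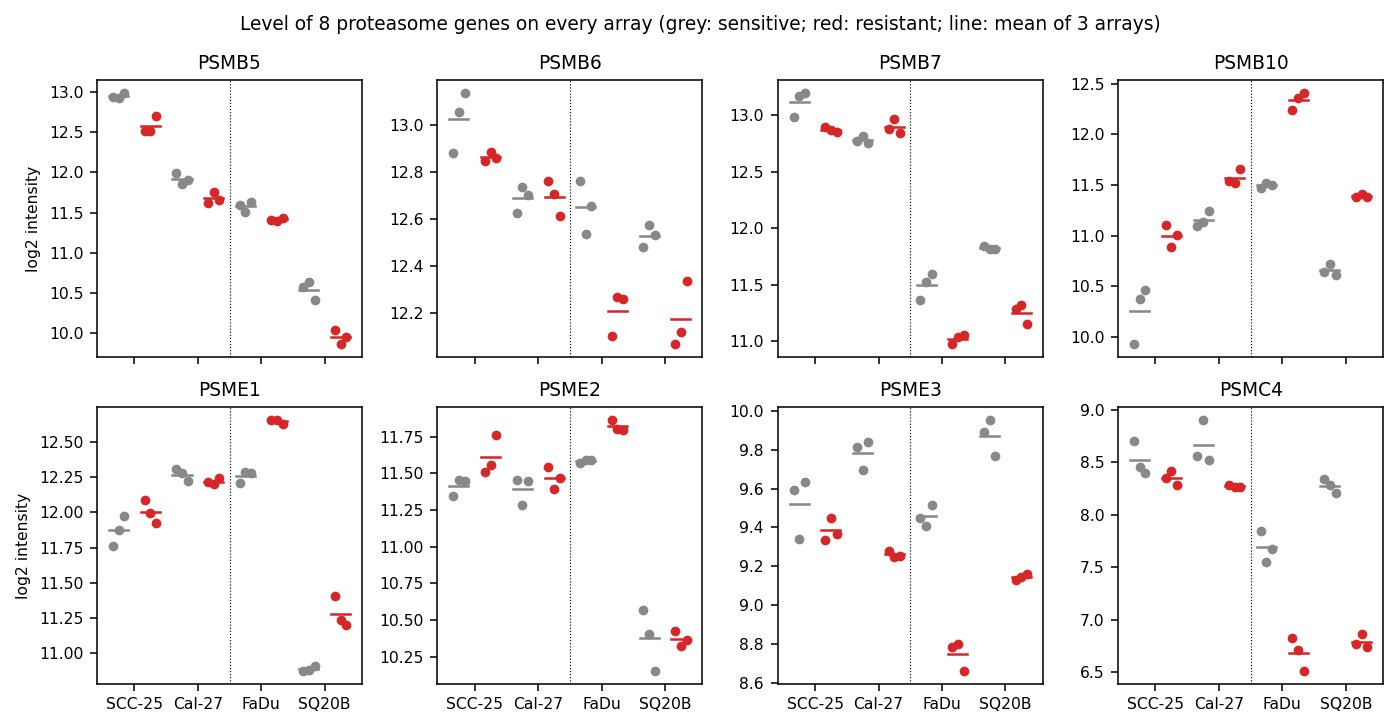
Log2 intensity of PSMB5, PSMB6, PSMB7, PSMB10, PSME1, PSME2, PSME3 and PSMC4 on each of the 24 arrays, with the mean of 3 arrays as a line. The dotted line parts the 2 tables, whose levels are on separate scales. The resistant arrays of PSMB10 lie above the sensitive ones in all 4 lines, and those of PSMB7 and PSMC4 lie below in FaDu and SQ20B.

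By their brightest probes, PSMA6, PSMB10, PSME1 and PSME2 fell in no line. The pair of GAAA described below was found for the last 3 of these and not for PSMA6. It was also found for PSMA4 and PSMB4, which fell in FaDu and SQ20B. Promoters of PSMB10, PSME1 and PSME2 are shown for those letters, and that of PSMC4 because it had the lowest change in FaDu and SQ20B. They run 5′ to 3′ along the gene from 250 bases before to 50 after its start, 300 bases each, from RefSeq on GRCh38.p14. Capitals in the first 3 mark GAAA, any 2 bases and GAAA, letters of the type that interferon regulatory factors bind, and in PSMC4 TGACNNNGC, letters of the type that NFE2L1 and NFE2L2 bind. PSMB10 lies at chr16:67936801-67937100 on the minus strand, PSME1 at chr14:24135944-24136243 on the plus strand, PSME2 at chr14:24146561-24146860 on the minus strand and PSMC4 at chr19:39970915-39971214 on the plus strand. The matches of PSME1 and PSMC4 read on the strand opposite to the gene and lie after its start.
PSMB10: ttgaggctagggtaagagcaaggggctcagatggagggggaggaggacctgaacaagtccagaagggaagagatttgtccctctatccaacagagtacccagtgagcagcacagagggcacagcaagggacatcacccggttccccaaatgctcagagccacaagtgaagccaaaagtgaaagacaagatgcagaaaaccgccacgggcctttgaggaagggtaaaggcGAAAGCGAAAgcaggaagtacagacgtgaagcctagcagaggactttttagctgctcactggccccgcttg
PSME1: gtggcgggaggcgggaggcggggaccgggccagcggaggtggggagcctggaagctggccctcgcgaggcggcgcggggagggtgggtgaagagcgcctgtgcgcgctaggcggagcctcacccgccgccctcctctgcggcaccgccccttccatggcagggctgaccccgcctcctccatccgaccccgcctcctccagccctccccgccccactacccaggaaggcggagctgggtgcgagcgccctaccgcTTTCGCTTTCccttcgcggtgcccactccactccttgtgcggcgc
PSME2: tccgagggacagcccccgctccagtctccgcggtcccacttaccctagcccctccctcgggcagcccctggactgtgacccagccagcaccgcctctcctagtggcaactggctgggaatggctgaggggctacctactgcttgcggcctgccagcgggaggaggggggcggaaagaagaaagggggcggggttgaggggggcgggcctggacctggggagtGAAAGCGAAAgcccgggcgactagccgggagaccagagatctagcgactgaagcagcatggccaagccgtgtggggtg
PSMC4: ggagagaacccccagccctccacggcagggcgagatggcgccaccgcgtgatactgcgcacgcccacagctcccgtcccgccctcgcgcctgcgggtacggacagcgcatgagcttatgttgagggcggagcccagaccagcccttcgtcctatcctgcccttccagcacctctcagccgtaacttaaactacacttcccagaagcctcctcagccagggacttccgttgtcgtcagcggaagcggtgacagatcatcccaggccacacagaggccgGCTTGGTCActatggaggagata

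Both strands of each promoter were searched. Promoters were matched by symbol for 28 of the 32 measured genes. The pair of GAAA was found in 5 of the 28, those of PSMB10, PSME1, PSME2, PSMA4 and PSMB4, and in 3.65% of the 27305 promoters searched. TGACNNNGC was found in 8 of the 28, those of PSMB3, PSMC4, PSMD1, PSMD3, PSMD12, PSME1, PSME2 and PSME4, and in 13.6% of all promoters. The PSME1 and PSME2 promoters hold both, without overlap between them. PSMA4 and PSMB4, which hold the first, fell in FaDu by 0.28 and 0.31 and in SQ20B by 0.42 and 0.65. Whether either set of letters is bound in these cells or bears on the changes was not tested.

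Across lines, 25 of the 32 genes fell in both FaDu and SQ20B, as did 13.0% of all genes. In at least 3 lines 13 of the 32 fell, against 8.02% of all genes, and none of the 32 fell in all 4 lines, where 1.28% of all genes did. That count of 0 depends on the processing. PSME4 was called lower in Cal-27 under 8 alternatives (adjusted p from 0.00760), and PSMD2 under 5 (from 0.0165). PSMC6 was called lower in both tongue lines without background correction, with the authors' processed values and with trend and robust eBayes. Its adjusted p was 0.0256 to 0.0402 in SCC-25 and 0.0138 to 0.0205 in Cal-27. With the mean of its probes PSMA3 was called lower in both (0.0420 and 0.0293). PSMC6 and PSMA3 kept their calls in FaDu and SQ20B under these settings. PSMA2 was the 1 gene called in both directions, against 18.1% of all genes, and PSMA6 and PSME2 were called in no line. Alternatives called PSME2 higher in FaDu under 4 settings (adjusted p from 0.0163) and PSMA6 lower in SQ20B under 5 (from 0.00695). The changes of the 32 genes ranked alike in FaDu and SQ20B, with a Spearman correlation of 0.71 across genes, against 0.56 across all 14077 genes. In SCC-25 and Cal-27 it was 0.17, against 0.07. Between tables it was 0.47 for Cal-27 and SQ20B (0.32 across all genes), 0.42 for Cal-27 and FaDu (0.31), 0.21 for SCC-25 and FaDu (0.14) and 0.18 for SCC-25 and SQ20B (0.05). These are descriptions over genes, which share arrays.

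**Figure D4:**
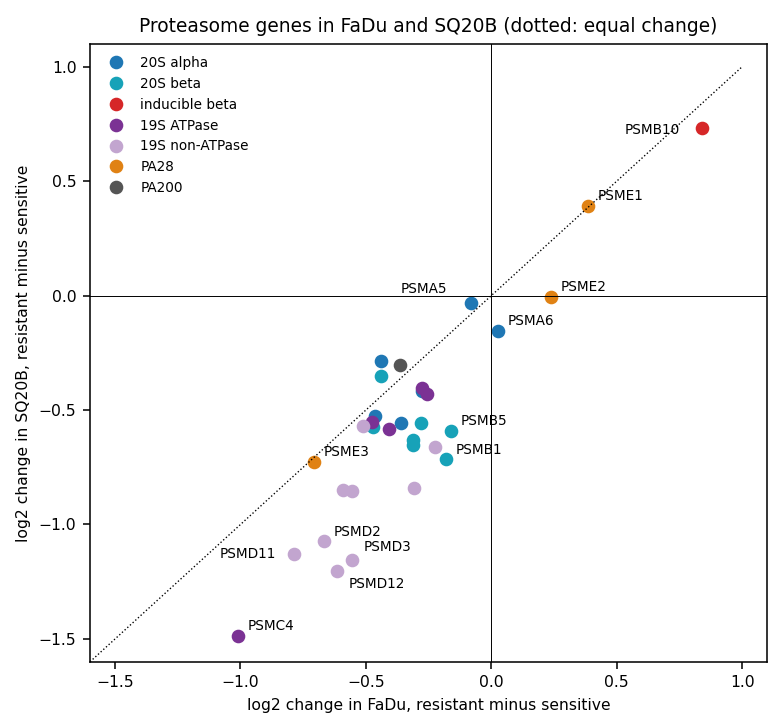
Log2 change of the 32 proteasome genes in FaDu (x axis) and SQ20B (y axis), coloured by subcomplex, with a dotted line of equal change. PSMC4 lies lowest at -1.01 and -1.49, PSMB10 highest at 0.84 and 0.73, and all 14 cap genes lie below the dotted line.

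The test of the difference between FaDu and SQ20B was passed by 7 of the 32 genes, against 33.4% of all genes. The change was less negative in FaDu for all 7, PSMB1, PSMB5, PSMC4, PSMD2, PSMD4, PSMD6 and PSMD12, by 0.41 to 0.59. Between SCC-25 and Cal-27, 8 of the 32 differed, against 33.6% of all genes. PSMA2, PSMC1, PSMD11, PSMD12 and PSME3 were higher in the change of SCC-25 by 0.38 to 0.75, and PSMA5, PSMB1 and PSMB7 were lower. Leaving out 1 array brought the count of 8 to 3 without SCC-25 resistant replicate 3 or Cal-27 resistant replicate 2, and to 4 without Cal-27 sensitive replicate 3. It was 5 without SCC-25 sensitive replicate 3, Cal-27 sensitive replicate 1 or Cal-27 resistant replicate 3.

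Among the parental lines, the share of the proteasome genes that differed was near that of all genes. Of the 32, 17 differed between sensitive Cal-27 and sensitive SCC-25, 5 higher and 12 lower in Cal-27, against 55.8% of all genes. PSMA2 was higher by 1.27 and PSMB10 by 0.90 in Cal-27, and PSMB5 was lower by 1.04 (log2 change -1.04 ± 0.08, adjusted p = 2.48e-07). Between sensitive SQ20B and sensitive FaDu, 20 differed, 9 higher and 11 lower in SQ20B, against 55.7% of all genes. PSME1 (-1.37 ± 0.08), PSME2 (-1.21 ± 0.10), PSMB5 (-1.04 ± 0.08) and PSMB10 (-0.84 ± 0.08) were lower in SQ20B, and the lid subunit PSMD8 was higher (0.99 ± 0.14).

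More than 1 probe was tested for 12 of the genes. PSMD12 was the 1 gene with a dimmer probe called opposite to its brightest. That probe, detected on 3 of 24 arrays, rose in FaDu (0.40 ± 0.10), and the mean of the probes of PSMD12 passed the test in neither FaDu (-0.11, adjusted p = 0.276) nor Cal-27 (-0.16, adjusted p = 0.318). PSMA1 had a second probe detected on all 24 arrays, which fell by 0.96 in FaDu and by 1.29 in SQ20B, more than the 0.44 and 0.29 of its brightest. The second probe of PSMA3 fell in all 4 lines, by 0.75 in SQ20B, 0.69 in FaDu, 0.36 in SCC-25 and 0.32 in Cal-27, where the brightest was called in FaDu and SQ20B. PSMA6 had a second probe detected on all 24 arrays, which fell by 0.34 in SQ20B (adjusted p = 0.00388, limma). In FaDu that probe gave 0.18 ± 0.08 and did not pass the test (adjusted p = 0.110). The brightest probe of PSMA6 was called in no line.

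Of 19 measured assembly factors, minor subunits and associated proteins, 8 fell and 1 rose in FaDu and 10 fell and 3 rose in SQ20B. In SCC-25 6 fell and 2 rose, and in Cal-27 4 fell and 1 rose. Of all genes, 20.3% fell in FaDu, 25.8% in SQ20B, 15.5% in SCC-25 and 17.4% in Cal-27. The 4 of 19 that fell in Cal-27 lay near the share of all genes. The shares of all genes that rose were 20.6%, 28.4%, 15.4% and 16.4% in the same order. The median log2 change over the 19 was -0.12, -0.30, -0.18 and -0.07 in the same order. The core assembly chaperone PSMG1 fell by 0.62 in FaDu and by 0.88 in SQ20B, and UCHL5, a deubiquitinase of the cap, by 0.81 and 1.09. PSMD5, a chaperone of cap assembly, fell in all 4 lines, by 0.98 in SQ20B, 0.53 in FaDu, 0.35 in Cal-27 and 0.33 in SCC-25. USP14, another deubiquitinase of the cap, rose by 0.86 in SCC-25, and TXNL1, a thioredoxin-like protein bound to the cap, fell there by 0.98. The ubiquitin ligase UBE3C fell by 1.04 in Cal-27.

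Of 4 genes that act in the transcription of proteasome genes, NFE2L1, the factor that raises proteasome genes when the protease is inhibited, fell by 0.55 in SCC-25 (adjusted p = 2.67e-04). It rose by 0.89 in Cal-27 (2.94e-06) and by 1.52 in SQ20B (1.23e-08), and its change in FaDu was 0.02 ± 0.09 (0.869). NFE2L2, the related factor of the oxidative stress response, rose by 0.40 in FaDu (8.00e-04) and by 0.44 in SQ20B (1.77e-04). In FaDu, DDI2, the protease that activates NFE2L1, fell by 0.48 (0.00692), and NGLY1, which removes its sugars, fell by 0.30 (0.0170).

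Of 11 measured genes of ubiquitin supply, shuttling and extraction, 1 rose and 6 fell in SQ20B, 3 rose and 4 fell in FaDu, 1 rose and 6 fell in Cal-27, and 4 rose and 2 fell in SCC-25. Of all genes, 28.4% rose and 25.8% fell in SQ20B, 20.6% and 20.3% in FaDu, 16.4% and 17.4% in Cal-27, and 15.4% and 15.5% in SCC-25. The 2 of 11 that fell in SCC-25 and the 3 of 11 that rose in FaDu lay near those shares. The segregase VCP, which pulls ubiquitin-tagged proteins out of complexes, fell by 0.24 in FaDu and by 1.01 in SQ20B. The shuttle UBQLN1 fell in all 4 lines, by 0.30 to 0.40. SQSTM1, a receptor that carries tagged proteins to autophagy, rose by 0.86 in SQ20B, 0.69 in Cal-27 and 0.48 in FaDu.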

How the data were processed

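RNA was hybridised to Illumina beadchips, 24 arrays in 8 groups taken from the sample titles. The probe intensity values deposited by the authors are linear mean bead signals without normalisation, in 2 tables of 12 arrays, each intensity beside a detection p-value deposited by the authors. The submitters' processing notes list GenomeStudio, version not given. Array number limits precision. The authors' processed intensity values were used as an alternative.

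Background was corrected from the detection p-values (nec, offset 16) and arrays were quantile normalised within a table and put on the log2 scale with limma 3.58.1 under R 4.3.3. The platform annotation gives 1 symbol for 30113 of the 47231 probes and several for 8, and the other 17110 are unnamed here. Probes with 1 symbol and a detection p under 0.05 on at least 3 of 24 arrays were tested (19171). The brightest probe of a gene was kept, which left 14077 genes. The 4 groups of a table were fitted together with lmFit and eBayes (8 residual degrees of freedom), with Benjamini-Hochberg adjustment over all genes. Errors are limma's standard errors, with 3 arrays a group. The fit was tested on simulated data. Levels of separate probes or tables are not compared.

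The proteasome genes and all gene lists were chosen with earlier results of these data known. Every proteasome gene could be named. Values on every array are given for PSMB5, PSMB6, PSMB7, PSMB10 and the PA28 genes and for the 3 highest and 3 lowest called changes of a line, and up to 2 called genes were named per other list, direction and line. A few further genes of these lists were named after their values were seen. Alternatives in background, scaling, filter, probe rule, model and arrays left out are given in the closing section. Symbols were checked through Entrez identifiers for 30074 probes. RefSeq supplied promoters, matched by symbol.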

Additional observations from a re-analysis of the deposited data

Results flagged for a closer look

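The resistance effect, resistant minus sensitive, differed between the 2 lines of a table for 34 of 116 pairs of a gene and a table, by limma's test of the difference (adjusted p under 0.05 over 14077 genes). The pairs are 32 proteasome genes and 26 associated genes in each of 2 tables, and 29.3% of them were called, against 33.6% and 33.4% of all genes. Values are differences of log2 changes.

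In SCC-25 minus Cal-27 the difference was positive for PSMA2 (0.75), PSMC1 (0.63), PSMD11 (0.57), PSMD12 (0.44) and PSME3 (0.38). It was negative for PSMA5 (-0.35), PSMB1 (-0.44) and PSMB7 (-0.36). Among associated genes it was positive for USP14 (0.95), UBE3C (0.82), PAAF1 (0.58), UBA1 (0.57) and UFD1 (0.51). It was negative for NFE2L1 (-1.44), TXNL1 (-0.97), SQSTM1 (-0.82), ZFAND2A (-0.80), PSMG3 (-0.59) and ZFAND5 (-0.44).

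In FaDu minus SQ20B the difference was positive for PSMD12 (0.59), PSMB1 (0.54), PSMD6 (0.53), PSMC4 (0.48), PSMD4 (0.44), PSMB5 (0.43) and PSMD2 (0.41). Among associated genes it was positive for UBB (0.80), VCP (0.77) and PSMD5 (0.45), and negative for NFE2L1 (-1.50), PSMB8 (-0.43), SQSTM1 (-0.39), NGLY1 (-0.36) and ZFAND5 (-0.31). NFE2L1 had the largest difference of the genes listed in both tables.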

How the results depend on the processing

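No called change of a proteasome gene turned its direction under any of the alternatives run. Of the called changes, 27 of 29 in SQ20B, 19 of 27 in FaDu, 4 of 10 in Cal-27 and 5 of 9 in SCC-25 kept their call under every alternative and every array left out. Calls were also gained in each line, 13 gene and line pairs in all. Median scaling moved the most. It gave 1 gene higher in each of SQ20B, FaDu and SCC-25, 5 lower in Cal-27, and 5 and 1 genes that differed between SCC-25 and Cal-27 and between FaDu and SQ20B. Under it the 20S median was -0.66 in SQ20B, -0.50 in FaDu and -0.17 in SCC-25, and the 19S median -0.20 in SCC-25 and -0.68 in FaDu. Median scaling moved the lower share of all calls from 50.2% to 62.8% in SCC-25, and moved the median of all genes by under 0.1. Cyclic loess gave a 20S median of -0.15 in SCC-25 and -0.45 in SQ20B and a 19S median of -0.18 in Cal-27 and -0.74 in SQ20B. Without background correction the 20S median was -0.27 in FaDu and -0.51 in SQ20B, and the 19S median -0.47 and -0.70. An offset of 50 gave a 20S median of -0.52 in SQ20B.

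With the mean of a gene's probes, 1 gene was higher in FaDu and in SQ20B. The 20S median was then -0.15 (SCC-25) and -0.57 (SQ20B), and the 19S median -0.16 (Cal-27). Between FaDu and SQ20B 12 genes differed without background correction, with the authors' processed values and with trend and robust eBayes, and 11 with an offset of 50 or with probes detected on all 24 arrays. With only the 6 arrays of the line, 4 genes were lower in SCC-25. Leaving out 1 array gave 0 to 1 genes higher in Cal-27 (0 without sensitive replicate 1, sensitive replicate 2 or resistant replicate 3), and 3 to 8 that differed between SCC-25 and Cal-27. It gave a 20S median of -0.186 to -0.073 in SCC-25 and -0.55 to -0.53 in SQ20B. It gave a 19S median of -0.150 to -0.087 in SCC-25, -0.25 to -0.19 in Cal-27 and -0.52 to -0.46 in FaDu. The cause was not tested.

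Same-numbered arrays did not deviate together (correlations of -0.069 to 0.070), and the main fit did not pair them. With 3 arrays a group, such correlations cannot show whether the numbers mark a shared culture or batch. With the replicate block, 27 genes were lower in SQ20B, 24 in FaDu, 8 in Cal-27 and 5 in SCC-25. The beadchip as a block was not run, since the column names used carry no chip identifier.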
